A study of Homo sapiens with 3 samples.

Results

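The 10 genes described here encode alpha tubulins (TUBA1A, TUBA1B, TUBA1C and TUBA4A) and beta tubulins (TUBB, TUBB2A, TUBB2B, TUBB3, TUBB4B and TUBB6). They were chosen by name, as targets of taxane drugs, out of 19974 protein-coding genes on chromosomes 1 to 22 and X. For each gene every deposited peak over its RefSeq span and within 20 kb of it was read. The measurement was CUT&Tag, in which an antibody guides a transposase to chromatin so that nearby DNA is cut and sequenced. All libraries came from A2780, an established cell line of human ovarian carcinoma. The BPP library profiled H3K27ac, histone H3 acetylated at lysine 27, in cells given BPP, a peptide that by the series design competes for the phosphorylation site of BIN2. The CTR library profiled H3K27ac in control cells. The design names a TAT peptide as comparator for RNA-seq, but for the CUT&Tag the treatment of the CTR cells is not stated in the labels. The IgG library used an antibody with no chromatin target. With 1 library per group, differences between the groups have no replicate check, and p-values were not computed.

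Alpha and beta tubulin pair into a dimer, and dimers join end to end into microtubules, which build the mitotic spindle and serve as tracks for transport. Taxanes such as paclitaxel, a standard drug in ovarian carcinoma, bind beta tubulin inside the microtubule and hold it in its polymerised state. Cells carry several tubulin genes, and TUBB3, best known from neurons, has been studied for its relation to taxane resistance. H3K27ac marks active promoters and enhancers and is usually found on the nucleosomes beside a transcription start.

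H3K27ac peaks lay at a start of 3 of the 10 tubulin genes, TUBA1B, TUBA1C and TUBB3, and these were the same genes in the BPP and CTR lists. A start counted as marked where a peak came within 1 kb of any of the 15 RefSeq starts of the 10 genes. Among the 15812 protein-coding genes with a start in the promoter table, 32.3% were marked in BPP (95% Wilson interval 31.6 to 33) and 33.9% in CTR (33.2 to 34.7). The tubulin count of 3 in each list therefore stood near the background. In both lists together 25.9% of these genes were marked, which is 4090 genes with the same pattern as TUBA1B, TUBA1C and TUBB3. This pattern asks for a start peak in each list and not for peaks that overlap. The TUBB3 start peaks were weak, and those of BPP and CTR did not overlap. No tubulin start was marked in IgG, where 1.61% of the genes were. Counted at either end of the gene span, 2 tubulin genes were marked in each H3K27ac list, TUBA1B and TUBB3, beside 30.6% of all genes in BPP, 31.2% in CTR and 2.13% in IgG.

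The promoter windows below show the starts on which these counts turn. Each holds 300 bases from RefSeq on GRCh38.p14, read 5′ to 3′ on the gene's strand, with the start at base 251. Capitals mark letters of 4 motifs searched on both strands. They are CCAAT (with its reverse ATTGG), the GC box GGGCGG (with CCGCCC), the TATA box TATAAA (with TTTATA) and the E-box CACGTG. TUBA1B (chr12:49131346-49131645, minus strand) and the inner start of TUBA1C (chr12:49264832-49265131, plus strand) carry the strongest of the peaks at a tubulin start. The outer start of TUBA1C (chr12:49227676-49227975, plus strand) has no peak near it and is shown for contrast. The first start of TUBB3 (chr16:89921675-89921974, plus strand) carries a weak peak, and TUBB4B (chr9:137241037-137241336, plus strand) has none at its start but several nearby in BPP.
TUBA1B: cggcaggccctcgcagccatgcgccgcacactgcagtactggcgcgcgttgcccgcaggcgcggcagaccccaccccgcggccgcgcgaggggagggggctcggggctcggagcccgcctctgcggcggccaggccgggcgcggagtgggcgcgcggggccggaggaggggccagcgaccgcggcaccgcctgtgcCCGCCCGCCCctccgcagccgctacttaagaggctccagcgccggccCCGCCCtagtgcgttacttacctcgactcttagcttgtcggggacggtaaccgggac
TUBA1C inner start: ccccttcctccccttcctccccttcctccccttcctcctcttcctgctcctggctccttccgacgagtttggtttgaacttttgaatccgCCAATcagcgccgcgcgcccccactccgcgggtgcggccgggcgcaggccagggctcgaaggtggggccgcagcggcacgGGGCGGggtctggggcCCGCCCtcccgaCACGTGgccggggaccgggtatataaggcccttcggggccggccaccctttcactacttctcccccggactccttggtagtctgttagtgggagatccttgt
TUBA1C outer start: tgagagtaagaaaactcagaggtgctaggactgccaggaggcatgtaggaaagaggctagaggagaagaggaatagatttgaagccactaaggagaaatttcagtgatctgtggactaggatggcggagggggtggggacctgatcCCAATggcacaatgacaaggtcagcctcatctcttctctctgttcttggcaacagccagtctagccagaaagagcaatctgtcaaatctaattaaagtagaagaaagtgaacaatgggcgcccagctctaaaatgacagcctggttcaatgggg
TUBB3 first start: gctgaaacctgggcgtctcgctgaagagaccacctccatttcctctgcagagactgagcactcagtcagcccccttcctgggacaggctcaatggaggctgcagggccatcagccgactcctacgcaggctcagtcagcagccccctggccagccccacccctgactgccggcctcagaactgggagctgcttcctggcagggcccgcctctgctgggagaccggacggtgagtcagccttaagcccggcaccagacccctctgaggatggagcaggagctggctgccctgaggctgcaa
TUBB4B: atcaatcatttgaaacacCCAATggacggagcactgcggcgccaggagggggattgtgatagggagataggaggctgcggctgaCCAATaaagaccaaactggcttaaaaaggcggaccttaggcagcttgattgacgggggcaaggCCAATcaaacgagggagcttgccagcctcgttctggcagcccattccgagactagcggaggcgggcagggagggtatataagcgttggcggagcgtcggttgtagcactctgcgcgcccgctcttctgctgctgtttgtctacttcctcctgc

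TUBA1B encodes a widely expressed alpha tubulin. Its span is chr12:49127782-49131395, on the minus strand with 1 start at 49131395. The BPP peak (chr12:49130425-49131392) had fold 4.35 and −log10 q 9.05, and the CTR peak (chr12:49130383-49131394) fold 5.66 and −log10 q 14.6. Both values come from the authors' peak caller and describe a peak within its own list, and their difference between lists is not read as a change. The BPP peak ended 3 bp inside the start and the CTR peak 1 bp inside it, so that both covered about the first kilobase of the transcribed side and the start base itself lay just outside both. The whole BPP peak lay within the CTR peak, and the summits were 248 bp apart. Among the 4744 BPP peaks at protein-coding starts the TUBA1B peak stood at percentile 45.9 by −log10 q, and among the 4907 such CTR peaks at percentile 75.5. The lncRNA gene TUBA1B-AS1 starts on the other side, 214 bp from the BPP peak and 212 bp from the CTR peak.

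TUBA1C, another widely expressed alpha tubulin gene (chr12:49227926-49274600, plus strand), has 3 RefSeq starts. Peaks were found at the innermost of them, 37.2 kb inside the gene span at 49265082. The BPP peak (chr12:49265050-49265679) had fold 7.39 and −log10 q 28.1, and the CTR peak (chr12:49264750-49265686) fold 6.49 and −log10 q 17.3. These were the peaks of highest fold and highest −log10 q near any of the 10 genes in their lists. Their summits were 2 bp apart, 378 bp and 380 bp downstream of the inner start. By −log10 q they stood at percentile 93.3 among the BPP peaks that lie at coding starts, and at 82.6 for CTR. The nearest BPP peak to the outer start at 49227926 was this same peak, 37.1 kb away. If only the outermost start of each gene is used, TUBA1C is not marked and the count is 2 of 10 in both lists. An IgG peak lay inside the gene (chr12:49257193-49257746, fold 5.84), 7.34 kb upstream of the inner start, and overlapped no H3K27ac peak.

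The TUBA1C windows differ in base composition. The window of the inner start has a GC content of 67.7% with 25 CpG dinucleotides, 2 GC boxes, 1 CCAAT box and 1 E-box. The window of the outer start has a GC content of 48% with 2 CpG dinucleotides, 1 CCAAT box and no GC box. Over the 22132 RefSeq windows of protein-coding genes the median GC content was 62.3% and the median number of CpG dinucleotides 21. The TUBA1B window has a GC content of 77%, 43 CpG dinucleotides and 3 GC boxes, of which the first pair overlap.

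**Figure D1:**
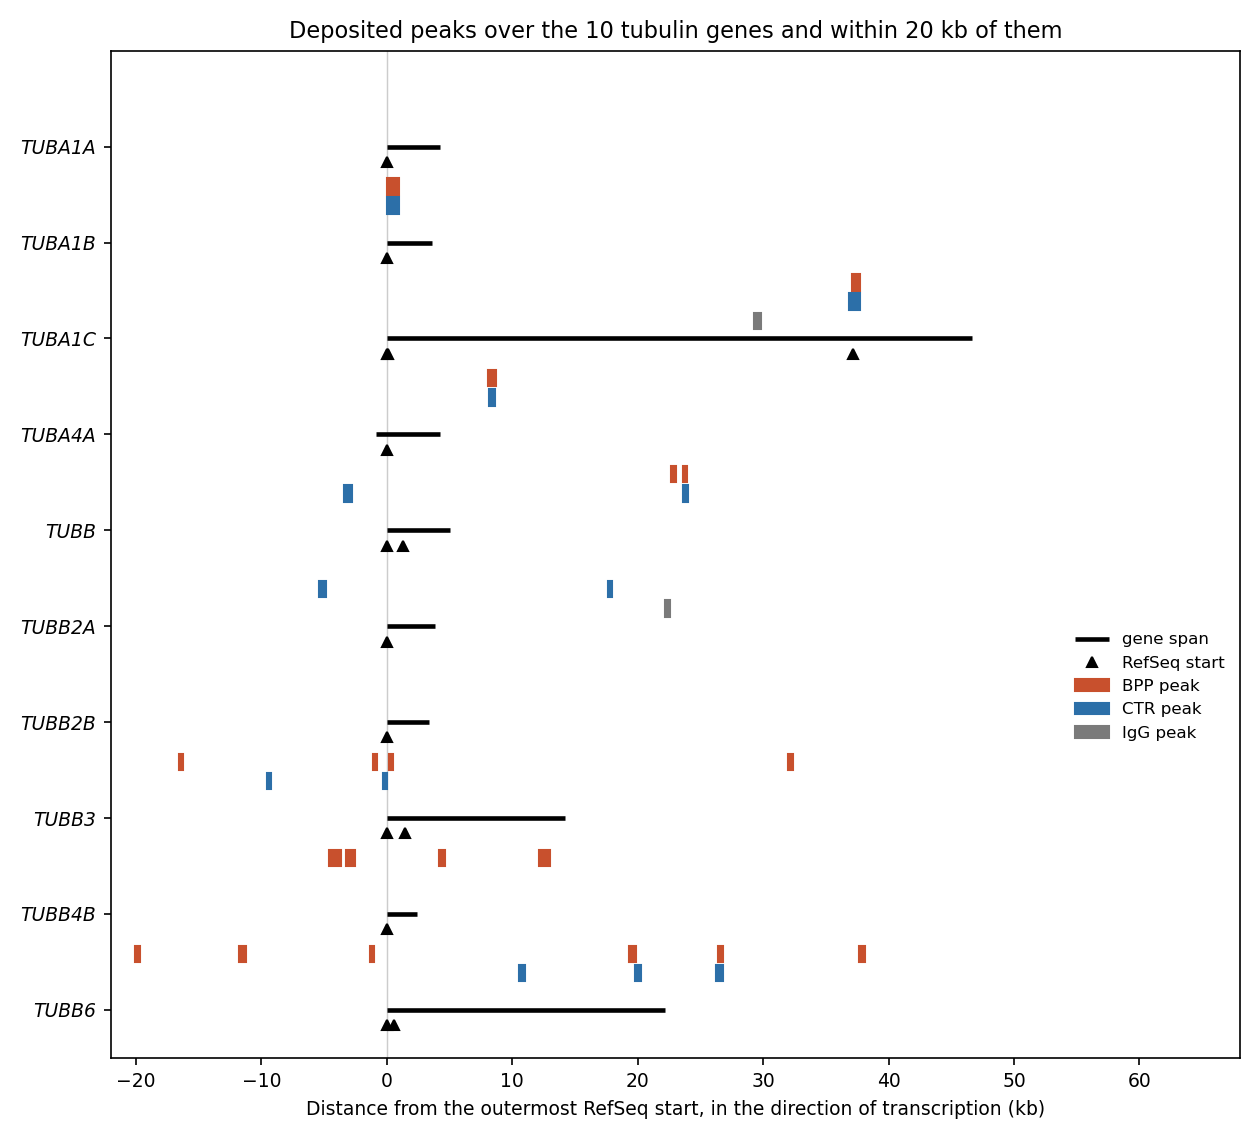
The horizontal axis is the distance from the outermost RefSeq start in kb along the direction of transcription, with 1 row per gene. Black lines are gene spans, triangles RefSeq starts, and bars the BPP, CTR and IgG peaks, drawn at least 0.25 kb wide. BPP and CTR bars coincide at TUBA1B and at the inner start of TUBA1C, and TUBB4B has 4 BPP bars and no CTR bar.

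TUBA1A, an alpha tubulin gene best known from developing neurons (chr12:49184795-49189080, minus strand), lies between TUBA1B and TUBA1C and had no peak of any list over it or within 20 kb. Its nearest H3K27ac peaks were those at TUBA1B, 57.7 kb from its start in both lists, and its nearest IgG peak lay 68.1 kb away. Its window holds 2 CCAAT boxes and no GC box, with a GC content of 55.7%. The 3 neighbouring alpha tubulin genes on chromosome 12 thus included 2 with start peaks in both lists and 1 with none. Of the other 18 protein-coding genes within 500 kb of TUBA1A that have a RefSeq start, 8 were marked in BPP and 10 in CTR. These 18 include TUBA1B and TUBA1C, and the shares over all genes with a start were 32.3% in BPP and 33.9% in CTR.

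TUBA4A, an alpha tubulin gene (chr2:219249710-219254740, minus strand, start at 219253918), had 1 peak near it in each H3K27ac list and none at its start. The BPP peak (chr2:219245212-219245856) had fold 4.31 and −log10 q 10.9, and the CTR peak (chr2:219245259-219245757) fold 4.79 and −log10 q 10.8. They lay 3.85 kb and 3.95 kb beyond the lower end of the span, downstream of TUBA4A. Each covered a start of GLB1L, which encodes a beta-galactosidase-like protein, and a start of STK16, a protein kinase gene. The TUBA4A window holds 4 GC boxes and 28 CpG dinucleotides without a peak over it.

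TUBB encodes a widely expressed beta tubulin (chr6:30720352-30725422, plus strand, starts at 30720352 and 30721638). No peak of any list lay over the gene or within 1 kb of either start. The nearest CTR peak (chr6:30716962-30717566, fold 3.02, −log10 q 3.06) lay 2.79 kb upstream and covered a start of MDC1, which encodes a mediator of the DNA damage checkpoint. BPP had no peak there, and its nearest was 21.4 kb from the second start. Downstream, a BPP peak (chr6:30743979-30744324, fold 2.85) and a CTR peak (chr6:30743974-30744396, fold 3.84) overlapped at IER3, an immediate early gene. A further BPP peak (chr6:30743044-30743399, fold 3.12) lay by FLOT1, IER3 and the lncRNA gene IER3-AS1. The window of the second TUBB start holds 6 GC boxes and 43 CpG dinucleotides and no peak was called over it in either list.

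TUBB2A and TUBB2B are neighbouring beta tubulin genes on chromosome 6 with a role in the developing brain. Neither had a peak at its start in any list. TUBB2A (chr6:3153666-3157544, minus strand) had 2 CTR peaks within 20 kb and no BPP peak. The first (chr6:3162395-3162944, fold 4.93, −log10 q 6.49) lay 4.85 kb upstream of its start, at no other gene's span or end. The other (chr6:3139553-3139875, fold 4.01, −log10 q 3.66) lay inside BPHL, a hydrolase gene, as did an IgG peak of fold 4.23 (chr6:3134987-3135361). The nearest BPP peak to the TUBB2A start was 30.6 kb away. TUBB2B (chr6:3224277-3227653, minus strand) had no peak of any list within 20 kb, with the nearest BPP peak at 33.5 kb and the nearest CTR peak at 64.7 kb from its start. TUBB2A was the only one of the 10 genes whose window held a TATA box, which begins 30 bases before the start, and 9.46% of all windows held that motif.

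TUBB3 (chr16:89921925-89936097, plus strand, starts at 89921925 and 89923342) was marked in both lists by weak peaks that did not overlap each other. In CTR a peak (chr16:89921597-89921941, fold 2.75, −log10 q 3.77) covered the first start. In BPP a peak (chr16:89922091-89922422, fold 2.60, −log10 q 4.56) began 166 bp downstream of that start, and another (chr16:89920838-89921138, fold 2.50, −log10 q 4.14) ended 787 bp upstream of it, over the end of MC1R, the melanocortin receptor gene. By −log10 q these stood at percentile 2.89 among CTR peaks at coding starts, and at 7.19 and 4.53 among those of BPP. None reached a −log10 q of 5, and with that threshold TUBB3 is not marked in either list. The second start lay 0.92 kb from the nearest BPP peak and 1.40 kb from the nearest CTR peak, although its window has a GC content of 79%, 47 CpG dinucleotides and 5 GC boxes. The window of the first start has 9 CpG dinucleotides and none of the 4 motifs. Further away BPP had peaks inside TCF25 (fold 2.65) and inside DEF8 by the snoRNA gene SNORA119 (fold 2.57), and CTR a peak 9.19 kb upstream (fold 3.20) by the start of LOC124903759.

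TUBB4B, a widely expressed beta tubulin gene also found in cilia (chr9:137241287-137243707, plus strand), had 4 BPP peaks within 20 kb and no CTR peak. None lay at its start or over its span. Upstream, the BPP peaks were chr9:137236698-137237635 (fold 3.12, −log10 q 7.61) and chr9:137238061-137238760 (fold 2.93, −log10 q 6.32), the second 2.53 kb from the start. Downstream were chr9:137245435-137245904 (fold 2.54, −log10 q 3.32) and chr9:137253425-137254328 (fold 3.29, −log10 q 7.95). The peak farthest upstream lies within 1 kb of the end of SLC34A3, a phosphate cotransporter gene. Both downstream peaks lie in CIMIP2A, a gene of ciliary microtubules, and the last of them covers a start of the lncRNA gene STPG3-AS1 and touches the end of STPG3. A start of NELFB, a subunit gene of the negative elongation factor, lies 999 bp from that peak. The nearest CTR peak to TUBB4B lay 56.1 kb from its start (chr9:137297400-137298278, fold 5.23).

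The BPP excess at TUBB4B extended beyond the gene. Within 500 kb of it there were 49 BPP peaks and 16 CTR peaks, with median folds of 3.29 and 3.31. The 49 include the 4 BPP peaks within 20 kb. Of 50 other protein-coding genes there with a RefSeq start, 12 were marked in BPP and 2 in CTR. The shares of all genes with a start were 32.3% and 33.9%. A start peak in either list was found at 24% of the 50, beside 40.4% of all genes with a start. Starts there were thus short of CTR peaks and not rich in BPP peaks. Around the other 9 tubulin genes, some of which share a neighbourhood, the peak counts within 500 kb ranged from 10 to 33 in BPP and from 8 to 24 in CTR. Over the genome 59 of 19974 protein-coding genes (0.295%) had at least 4 BPP peaks and no CTR peak over them or within 20 kb, and 1 had at least 4 CTR peaks and no BPP peak. TUBB4B was singled out for the genome count and the account of its neighbourhood after its peaks were seen.

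TUBB6, a beta tubulin gene (chr18:12307669-12329826, plus strand, starts at 12307669 and 12308241), had 6 BPP peaks and 3 CTR peaks over it or within 20 kb, the most of the 10 genes in both lists. At least 6 BPP peaks were found at 533 of the 19974 genes (2.67%). None of the peaks near TUBB6 came within 1 kb of a start. The nearest was a BPP peak (chr18:12306311-12306643, fold 3.02, −log10 q 4.61) that ended 1026 bp upstream of the first start, just outside the window, and the nearest CTR peak lay 9.96 kb from the second start. Near the end of the gene a BPP peak (chr18:12326969-12327568, fold 4.67, −log10 q 12.4) and a CTR peak (chr18:12327448-12327927, fold 3.53, −log10 q 4.53) overlapped by 121 bp. A CTR peak inside the gene (chr18:12318203-12318709, fold 4.13) had no BPP counterpart. Beyond the gene end, a BPP peak (chr18:12334051-12334463, fold 4.37) and a CTR peak (chr18:12333915-12334486, fold 4.68) overlapped within AFG3L2, which encodes a mitochondrial protease subunit, and by the lncRNA gene LOC107985154. The remaining BPP peaks lay 11.2 kb and 19.7 kb upstream and 15.5 kb beyond the gene end, with folds of 4.999, 3.93 and 3.67. The window of the second start holds 50 CpG dinucleotides, the most of the 15 windows, and 6 GC boxes, as many as that of the second TUBB start.

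**Figure D2:**
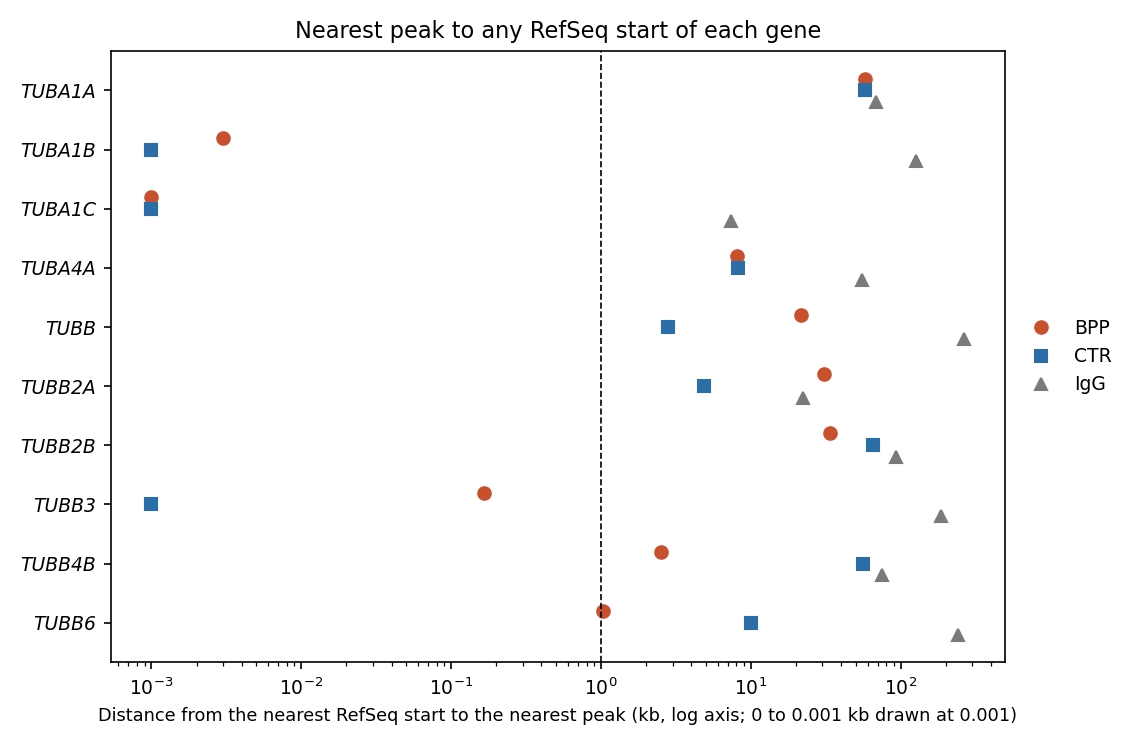
The horizontal axis is the distance in kb, on a log scale, from the start closest to a peak of that list to that peak, with 1 row per gene. Circles are BPP, squares CTR and triangles IgG, and the dashed line is at 1 kb. TUBA1B, TUBA1C and TUBB3 have BPP and CTR symbols left of the line, and the TUBB6 BPP symbol lies just to its right at 1.03 kb.

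In all, 7 of the 10 tubulin genes had a BPP peak over them or within 20 kb, 7 had a CTR peak and 2 an IgG peak. The shares of all protein-coding genes were 59.8%, 57.1% and 24.6%, so these counts too lay near the background in each list. TUBB4B was on the BPP side only, like 9.57% of all genes, and TUBB2A on the CTR side only, like 6.92%, so 1 of 10 on either side is near the background. TUBA1A and TUBB2B had neither, like 33.3% of protein-coding genes. The lists held 19 BPP, 12 CTR and 2 IgG peaks near the 10 genes, and without TUBB4B the BPP number was 15. Of the 19 BPP peaks 4 lay at a tubulin start, 1 elsewhere inside a gene and 14 in the flanks. Of the 12 CTR peaks 3 lay at a start, 2 inside and 7 in the flanks. Among the flanking peaks, 5 of 14 in BPP and 4 of 7 in CTR lay within 1 kb of an end of another protein-coding gene. Both counts include the overlapping peaks by TUBA4A and at IER3. The same share over all peaks of each list is not given here.

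By their medians, peaks near the tubulin genes were modest within their lists. The TUBA1C start peaks stood higher, at percentile 95.9 of all BPP peaks and 88.1 of all CTR peaks by −log10 q. For all peaks near the 10 genes the median fold was 3.12 in BPP and 4.07 in CTR, beside 4.36 and 4.64 for all peaks of those lists. Median −log10 q was 6.32 in BPP and 6.55 in CTR, beside 7.11 and 7.18. Overlap between the lists was found for 6 of 19 peaks in BPP and 6 of 12 in CTR, at TUBA1B, TUBA1C, TUBA4A, TUBB and TUBB6. Over whole lists 8928 of 17841 BPP peaks (50%) overlapped a CTR peak, and 8849 of 14836 CTR peaks (59.6%) a BPP peak. None of the 31 peaks overlapped an IgG peak, and over whole lists 1.82% of BPP and 2.32% of CTR peaks did. Read numbers of the libraries are not among the sources used here and depth is unknown, so a place without a peak is one where none was called and is not shown to lack the mark.

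**Figure D3:**
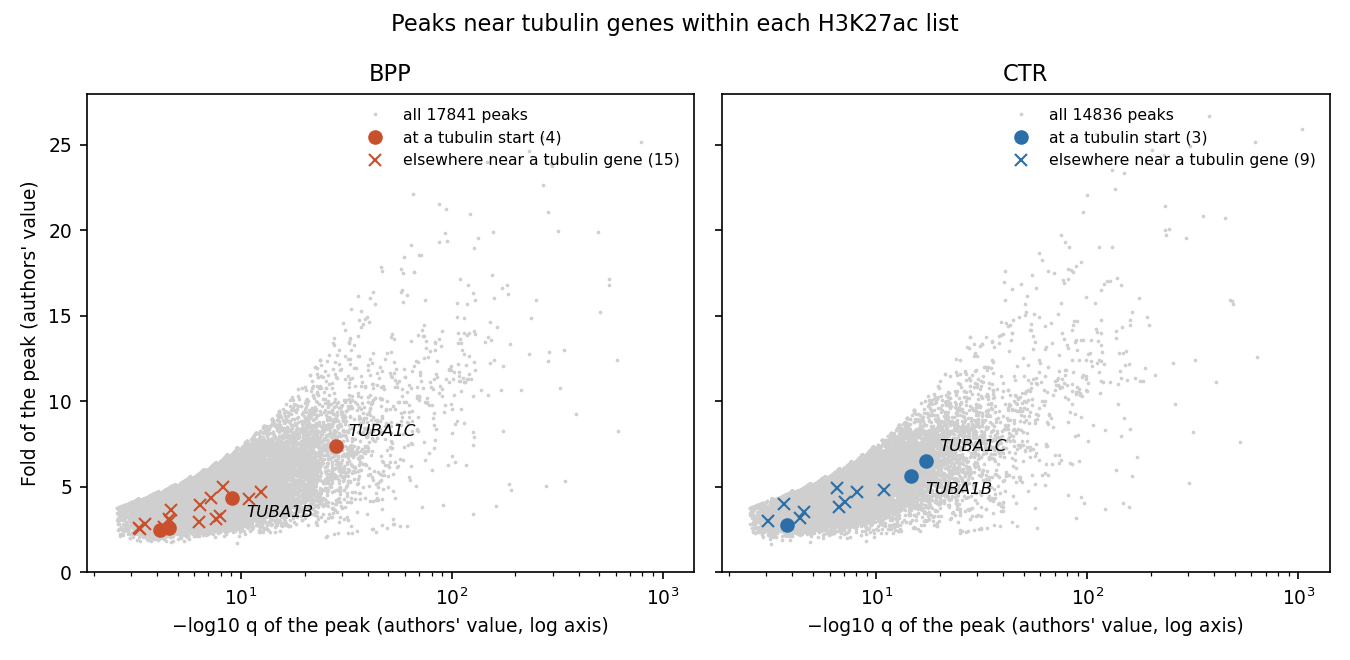
Each point is a peak, with the authors' −log10 q on a log horizontal axis and the authors' fold on the vertical axis, for BPP on the left and CTR on the right. Grey points are all peaks, circles are peaks within 1 kb of a tubulin start and crosses the other peaks near the tubulin genes. The TUBA1C circles are the highest tubulin points in both panels, at folds of 7.39 and 6.49, and the TUBB3 circles lie at the lower left.

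Motif counts were made over all 15 tubulin windows as a description. A CCAAT box was in 9 of 15, a GC box in 9, a TATA box in 1 and an E-box in 2. The outermost pair of TUBA1C windows overlap and hold the same CCAAT box, which is thus counted at both. In the 22132 windows of protein-coding genes the shares were 34.6%, 56.3%, 9.46% and 8.34%. The E-boxes were at the inner TUBA1C start and the second TUBB start, of which only the first had a peak. Of the 9 windows with a GC box, 7 had no H3K27ac peak over them, including those of TUBB2A, TUBA4A and the second TUBB6 start. The share of all GC-box windows without such a peak is not given here, so this count has no background. It asks for a peak over the window itself, and the second TUBB3 start, among the 7, had a BPP peak within 1 kb. The windows of TUBA1B and the inner TUBA1C start had both a GC box and peaks of both lists.

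Other genes of the tubulin pathway were counted at either gene end from lists made with earlier results of these data known. Over all protein-coding genes 23.6% were marked at an end in both lists, 7.03% in BPP alone and 7.57% in CTR alone, and the counts below are to be read against these shares. Of 12 other tubulin genes, 2 were marked in both H3K27ac lists and 1 in BPP only. TUBD1, the delta tubulin gene, had folds of 4.08 in BPP and 6.94 in CTR, and TUBE1, the epsilon tubulin gene, a BPP peak of fold 6.51. TUBG2 was also marked in both, but its strongest end peaks did not overlap. The CTR peak (fold 3.16) was at a start and the BPP peak (fold 3.02) was not. Within 1 kb of a start, 1 of the 12 was marked in both lists. Of 21 genes of tubulin folding, both lists marked 14, BPP alone 3 and CTR alone 2, which is 81% of the list in BPP and 76.2% in CTR, beside the 30.6% and 31.2% of all genes. They included PFDN5 of prefoldin (BPP, fold 3.88), the tubulin cofactor genes TBCC (BPP, fold 4.73) and TBCB (CTR, fold 3.67), and ARL2, a GTPase gene that works with these cofactors (CTR, fold 6.12). The 10 tubulin genes were marked at 20% in both lists by the same count, which leaves out TUBA1C because its peaks lay at an inner start. At starts, 15 of the 21 folding genes and 3 of the 10 tubulin genes were marked in each list.

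Of 28 tubulin-modifying enzyme genes, both lists marked 9, BPP alone 2 and CTR alone 5. The glutamylase gene TTLL7 (fold 9.70) and the methyltransferase gene SETD2 (fold 6.92) were on the CTR side and TTLL3 (fold 3.63) on the BPP side. Of 12 genes of the gamma-tubulin ring complex, on which new microtubules start, 6 were marked in both and 2 in CTR only, NEDD1 (fold 5.84) and MZT2B (fold 2.83). Of 30 microtubule-binding protein genes, both lists marked 10, BPP alone 2 and CTR alone 1. TPX2, a spindle assembly factor gene, had a BPP peak of fold 3.88. Of 17 severing and depolymerising factor genes, both lists marked 3, BPP alone 1 (FIGNL1, fold 7.18) and CTR alone 4, with the kinesin gene KIF2A at fold 5.20.

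Tubulin messages are degraded when free tubulin is abundant, through factors that read the nascent chain and recruit a deadenylase. Of 12 genes of this autoregulation, both lists marked 7, BPP alone 1 (CNOT11, fold 3.21) and CTR alone 1 (SCAPER, fold 6.47). Of 15 genes of taxane transport and response, 5 were marked in both and 2 in BPP only, BCL2 (fold 5.76) and the spindle checkpoint gene BUB1B (fold 4.69). Differences between BPP and CTR within these lists could not be tested with 1 library per group.

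**Figure D4:**
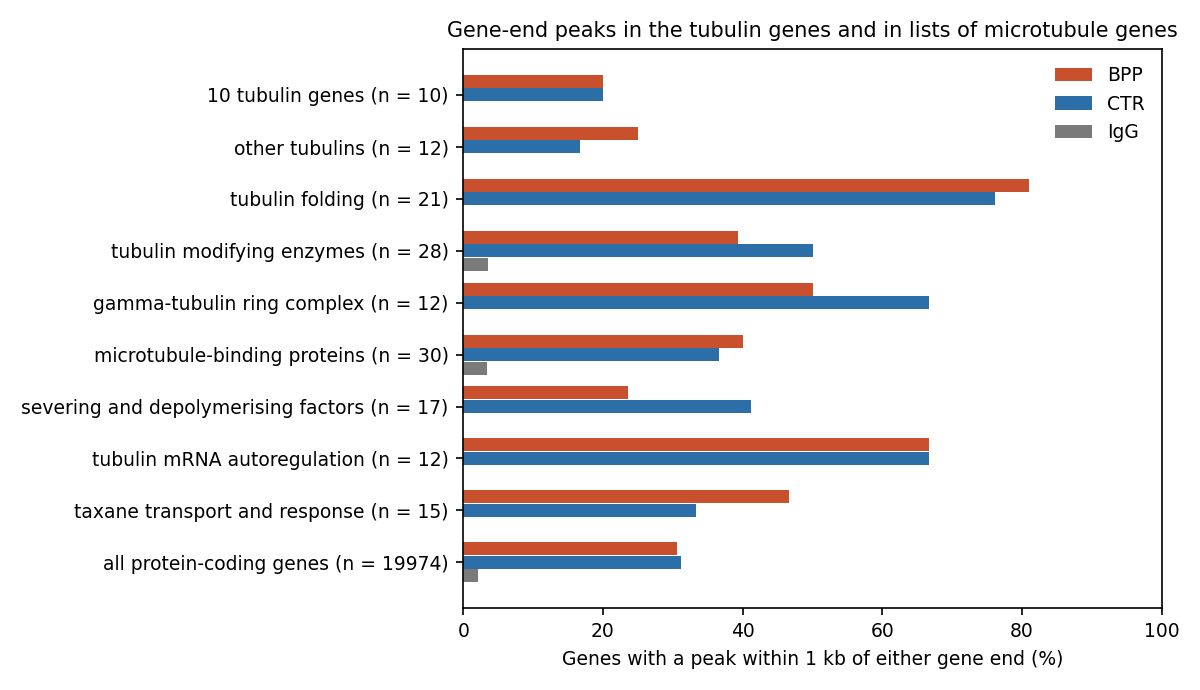
Bars give the percentage of genes with a peak within 1 kb of either gene end for BPP, CTR and IgG, with the number of genes per list in brackets and all protein-coding genes in the last row. The tubulin genes are at 20% in BPP and CTR, and the tubulin folding genes at 81% and 76.2%.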

How the data were processed

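H3K27ac was profiled by CUT&Tag in A2780 cells with 1 library each for BPP, CTR and IgG, grouped by the sample titles. The submitters' processing notes name build GRCh38.p13 and the tools fastp, deepTools 3.3.0 and Bowtie2 2.4.1. Sources used here give neither the peak caller nor the depth. Each library has its own deposited peak list. Its fold is the authors' ratio over an undescribed background. Its −log10 p and −log10 q are the authors' deposited values, with no −log10 p below 5, and its score, also deposited, is the −log10 p times 10 without decimals.

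Peaks on chromosomes 1 to 22 and X were used (17841 BPP, 14836 CTR and 7701 IgG). Gene spans and starts came from RefSeq tables of GRCh38.p14, which has the same chromosome coordinates as earlier patches. The promoter table has 250 bases before and 50 after each start, and all 10 genes matched. The tables used here hold no exons. Overlap meant at least 1 bp. Python 3.11.15, pandas 2.3.3, numpy 2.4.6, scipy 1.17.1 and matplotlib 3.10.9 were used, and the overlap step was tested on simulated data against bedtools 2.31.1 with 0 differences over 19974 genes. Wilson intervals cover counting error only and treat genes as independent. The members and lists were chosen with earlier results of these data known. Every tubulin gene is named, with other genes where a peak near a tubulin gene touches them, and up to 4 per list, first those marked in 1 H3K27ac list with the highest −log10 q. Proteins were not analysed here. Alternatives changed the windows, the overlap and the peak threshold.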

Additional observations from a re-analysis of the deposited data

How the results depend on the processing

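Of 79 alternative values, 43 stayed within 1.5 times the reported count and 36 did not. Some of the 43 are IgG counts of 0 under narrower windows or stricter thresholds, which could only stay at 0. The counts are small, so 1 peak often moves them. For gene-end peaks, BPP went from 2 genes to 4 with windows of 2 kb and 5 with 5 kb, and CTR from 2 to 6 with 5 kb. With a fold of 5 or more, 0 genes were marked at an end in BPP and 1 in CTR. With a −log10 q of 5 or more there was 1 in each, and with the top 5000 peaks 0 in BPP and 1 in CTR. Start peaks in BPP went from 3 genes to 1 with a fold of 5 or more, with the top 5000 peaks and with peaks over the start base itself. The last was chosen after seeing the data, as was the use of outermost starts.

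With a flank of 10 kb there were 12 BPP peaks and 1 IgG peak, and with 5 kb 11 and 1, against 19 and 2, which left 1 gene with an IgG peak at both flanks. With a fold of 5 or more there remained 1 BPP, 2 CTR and 1 IgG peak, at 1, 2 and 1 genes. With a −log10 q of 5 or more there were 10 BPP, 7 CTR and 0 IgG peaks, the last at 0 genes. With the top 5000 peaks there were 3 in BPP and 3 in CTR, at 3 genes each. Overlapping peaks went from 6 to 1 in both directions with a fold of 5 or more, and to 2 with the top 5000 peaks. A fold of 5 keeps 5964 BPP and 6012 CTR peaks, so it is not equally strict. Depth is unknown and limits every statement on a missing peak.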

Other observations

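Markers of the cell type were read at gene ends. Of 12 ovarian carcinoma and epithelial markers, the keratin genes KRT8 and KRT18, whose spans overlap, were marked at a gene end in BPP and in CTR, and MSLN, the mesothelin gene, was marked in BPP only. None of the 12 had a peak at a RefSeq start in both lists, and KRT18 has no start in the promoter table. PAX8, WT1, EPCAM, KRT7, KRT19, CDH1, MUC16, CLDN3 and CLDN4 had no gene-end peak in either. None of 6 fibroblast and 4 endothelial markers was marked, and of 5 leukocyte markers CD68 was marked in both lists. Over all protein-coding genes 23.6% were marked at an end in both lists, 7.03% in BPP alone and 61.8% in neither. At starts 25.9% were marked in both. With so few markers per list, these counts do not identify a cell type.

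Tubulin genes have many pseudogenes, to which reads of the coding parts can also match. Of 53 alpha and beta tubulin pseudogenes in the RefSeq table, 2 were overlapped by a BPP peak, 2 by a CTR peak and 1 by an IgG peak. The share over all pseudogenes is not given here, so these counts have no background and do not measure wrongly placed reads. TUBBP5 (chr9:138150113-138177433) was overlapped in both H3K27ac lists. Whether its BPP and CTR peaks overlap each other is not given here. The promoter windows of the tubulin genes were not alike. TUBB2A and TUBB2B shared 52.2% of aligned columns and no run of bases longer than 11, and TUBA1A and TUBA1B shared 53.0% and no run longer than 7.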
